A study of Mus musculus with 9 samples.

Results

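The scavenger and lipid uptake receptors described here are 10 genes, Msr1, Marco, Colec12, Cd36, Scarb1, Olr1, Mrc1, Cd163, Stab1 and Lrp1. They were taken by gene name from a table of 57238 entries, each name was present, and all 10 were among the 15028 genes with enough reads to be tested. Their RNA was measured by sequencing in dendritic cells that were grown from marrow of wildtype C57BL/6 mice (BMDCs) in GM-CSF at 20 ng/ml, for 6 days according to the labels. The general methods describe a longer culture. CTR cells had no treatment, NE cells were given exosomes of the fibroblast line NIH-3T3, which is not cancerous, and TDE cells were given exosomes of tumor cells, with 24 hours of exposure in both cases. The tumor line used for these libraries is not given in the labels. Each group had 3 libraries, and nothing in the sources used here says whether those were separate cultures or mice, so p-values measure only the spread between libraries. The study asks how tumor exosomes change lipid handling and T cell priming by dendritic cells, and these comparisons ask whether the RNA of receptors that bind and take up lipid, lipoprotein and dying cells differed between the groups.

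Scavenger receptors were named for their ability to bind oxidized and acetylated low-density lipoprotein (LDL) and to go on taking it up when the cell is already loaded with cholesterol. Class A members (Msr1, Marco, Colec12) are trimers with a collagen-like stalk that bind polyanions, modified lipoprotein and bacteria. Class B members (Cd36, Scarb1) cross the membrane at both ends and move fatty acids or cholesterol esters, and the class E member Olr1 is a C-type lectin for oxidized LDL. Mrc1 binds mannose-bearing glycoproteins, Cd163 clears haemoglobin bound to haptoglobin, Stab1 takes up acetylated LDL and secreted matrix proteins, and Lrp1 is a giant endocytic receptor for apolipoprotein E remnants and many protease complexes. GM-CSF cultures of mouse marrow hold macrophage-like cells beside dendritic cells and granulocytes, and several of these receptors are textbook macrophage markers.

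The libraries held between 17469782 and 21092943 estimated reads, so that 3 reads corresponded to 0.142 to 0.172 CPM, reads scaled to a common library total. CPM values below are also scaled by TMM, a factor per library that corrects for differences in composition. CTR replicate 1 stood apart from the other 8 libraries. Its correlation with each of them over the tested genes, on log2 CPM, was 0.827 to 0.900, against 0.942 or more between any other pair. It was low in long genes, with a median log2 deviation from the mean of the 9 libraries of -0.99 over 243 genes of 10000 bases or more, and high in genes under 2000 bases, with 0.70 over 5273 genes. Reads on mitochondrially encoded genes made up 1.03% of that library and 2.52% to 2.92% of the others. The tests of the receptors against CTR are therefore given with and without it, as are the counts of the gene lists. In bulk RNA, fewer cells of a type and less RNA per cell cannot be told apart.

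Marco and Scarb1 were higher and Colec12 and Stab1 were lower in TDE-treated than in CTR BMDCs. Thus 4 of the 10 receptors passed the test at an adjusted p under 0.05, 2 in each direction. Over all tested genes 16.9% passed, 7.57% higher and 9.34% lower. In TMM-scaled CPM, the libraries of TDE and CTR did not overlap for 5 of the receptors, these 4 and Msr1, beside 44.0% of all tested genes. The median log2 fold change of the 10 was -0.28, beside -0.06 for all tested genes.

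**Figure D1:**
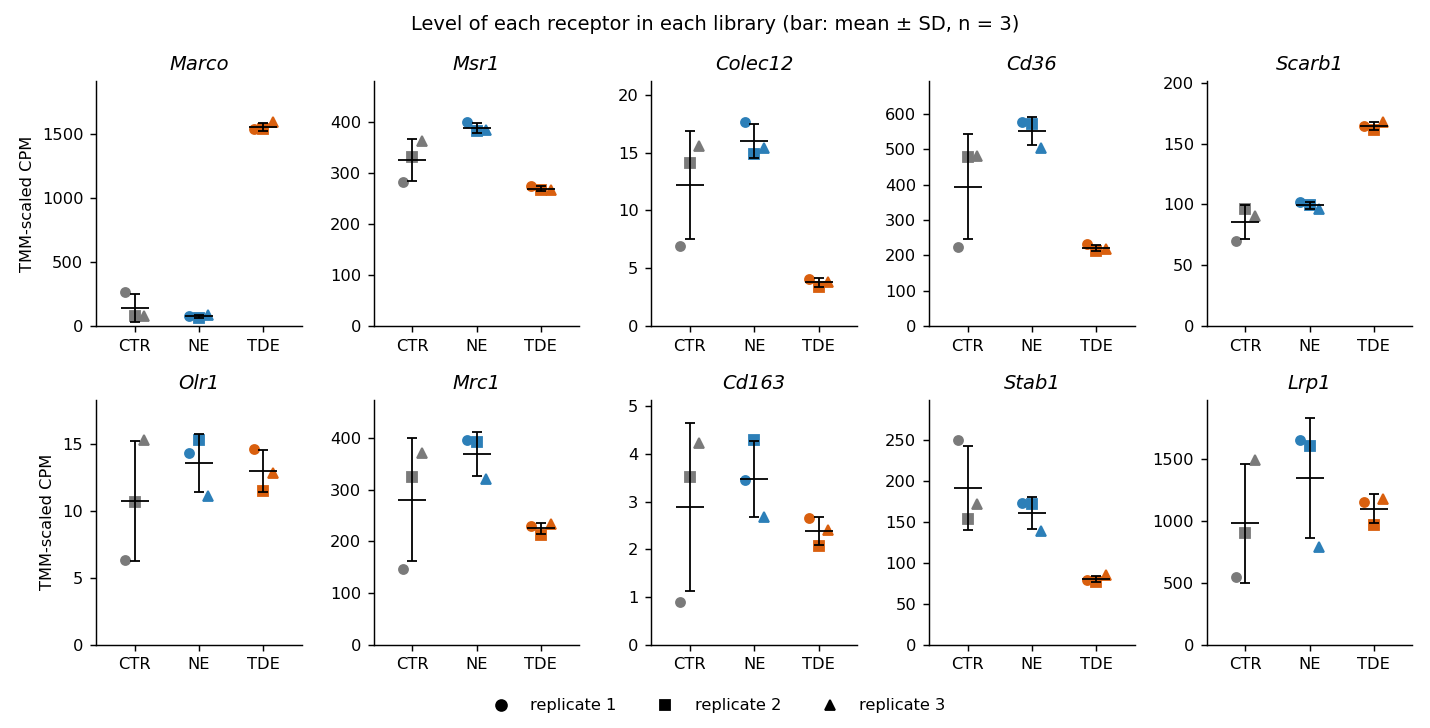
TMM-scaled CPM of each receptor (vertical axis, linear from 0, own scale in each panel) in the 3 libraries of each group, with the replicate number as the marker shape and the mean ± SD as the bar. Marco and Scarb1 sit highest in the 3 TDE libraries, Colec12 and Stab1 sit lowest there, and CTR replicate 1 lies away from its group in most panels.

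Marco, the class A receptor with a collagenous structure best known on marginal zone and alveolar macrophages, had by far the largest difference. Its level was 264.5, 74.6 and 76.74 CPM in CTR replicates 1, 2 and 3 and 74.95, 61.27 and 88.76 CPM in the NE libraries, but 1534, 1535 and 1592 CPM in the TDE libraries. No TDE library came near the range of the other groups, and CTR replicate 1 held 3.50 times the mean of the other 2 CTR libraries. The log2 fold change, TDE against CTR, was 3.49 (SE 0.506, edgeR quasi-likelihood test, adjusted p = 0.00338), an 11.2-fold difference. Without CTR replicate 1 it was 4.35. Marco lies on chromosome 1 at 120474538 to 120505024 on the minus strand in GENCODE vM21 (GRCm38), with 18 distinct exons, none of which overlaps another gene.

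Msr1, the class A receptor SR-A1 through which macrophages take up modified LDL, was lower in TDE than in NE, while its difference from CTR did not pass with all libraries. It was measured at 281.8, 331.8 and 363.2 CPM in CTR, at 400.5, 381.9 and 384.2 CPM in NE, and at 274.9, 266.1 and 266 CPM in TDE. Each TDE library was below each CTR library in these TMM-scaled values. For CTR replicate 1 this rests on its TMM factor of 0.751. That library, the largest, held 4446 estimated reads of Msr1, and the TDE libraries held 4874 to 5092. With library totals as the scaling, the log2 fold change against CTR was -0.23 (adjusted p = 0.511, edgeR). With TMM, the difference of -0.28 (SE 0.132) did not pass the test (adjusted p = 0.174, edgeR quasi-likelihood test). It passed without CTR replicate 1, at -0.38 (adjusted p = 0.00303). Against NE, all 3 TDE libraries were lower and the log2 fold change of -0.53 (SE 0.133) passed (adjusted p = 0.0315).

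Colec12, the class A collectin SRCL that carries a lectin domain at its tip, was a low-level gene that fell further in TDE. Its values were 6.91, 14.1 and 15.6 CPM in CTR, 17.7, 14.9 and 15.4 CPM in NE, and 4.10, 3.39 and 3.81 CPM in TDE. These last levels rest on 74.29, 61.95 and 72.96 estimated reads, well above the floor of 3 reads. Every TDE library was below every other library, including CTR replicate 1. The log2 fold change was -1.70 (SE 0.290, adjusted p = 0.00653) against CTR and -2.08 (SE 0.292, adjusted p = 0.00268) against NE in edgeR's quasi-likelihood test. Against CTR without replicate 1 it was -1.99. With all libraries, 1 of the 3 class A genes was thus higher and 1 lower in TDE against CTR, and Msr1 passed against NE alone.

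Cd36, the class B receptor and fatty acid translocase that also binds oxidized LDL and thrombospondin, was lower in TDE than in NE and overlapped with CTR. It stood at 222.1, 476.7 and 481.4 CPM in CTR, 577.1, 570 and 504.4 CPM in NE, and 231, 212.8 and 218.6 CPM in TDE. CTR replicate 1 lay among the TDE libraries and held 0.464 of the mean of the other 2 CTR libraries. The log2 fold change of -0.83 against CTR (SE 0.273, 95% interval -1.46 to -0.21) had an unadjusted p of 0.0149 and an adjusted p of 0.0716 by the edgeR quasi-likelihood test. Without CTR replicate 1 it was -1.13 (adjusted p = 1.38e-05). Against NE the groups were far apart, at -1.32 (SE 0.275, adjusted p = 0.0154), a 2.49-fold lower level.

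Scarb1, the class B receptor SR-BI that takes cholesterol esters from high-density lipoprotein, was higher in TDE than in either other group. The libraries gave 69.78, 96.27 and 90.21 CPM in CTR, 102.2, 99.28 and 95.92 CPM in NE, and 164.8, 161.3 and 167.9 CPM in TDE. The TDE libraries were above all 6 others. The log2 fold change was 0.95 (SE 0.143, adjusted p = 0.00404) against CTR and 0.73 (SE 0.142, adjusted p = 0.0116) against NE in the edgeR test. Without CTR replicate 1 it was 0.81 against CTR.

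Olr1, the lectin-like oxidized LDL receptor LOX-1, showed no separation of the groups. Its levels were 6.34, 10.7 and 15.3 CPM in CTR, 14.3, 15.3 and 11.1 CPM in NE, and 14.6, 11.5 and 12.9 CPM in TDE. The ranges overlapped in all 3 comparisons, and the 95% interval of TDE against CTR ran from -0.41 to 0.95. The sign of this difference was not stable, being 0.27 with all libraries and -0.0045 without CTR replicate 1.

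Mrc1, the mannose receptor CD206, and Cd163 are endocytic receptors used as markers of alternatively activated and tissue macrophages. Mrc1 was at 146, 324.8 and 370.7 CPM in CTR, 395.4, 392.1 and 319.6 CPM in NE, and 229.4, 212 and 232.9 CPM in TDE. CTR replicate 1 was the lowest of all 9 libraries, and the log2 fold change against CTR was -0.32 (adjusted p = 0.469, edgeR). Leaving that library out gave -0.64 (adjusted p = 0.00199). Against NE every TDE library was lower, but the difference of -0.72 (SE 0.306) did not pass (adjusted p = 0.180).

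Cd163 had the lowest CPM of the 10 receptors in CTR, NE and TDE. It had 0.887, 3.52 and 4.24 CPM in CTR, 3.45, 4.28 and 2.69 CPM in NE, and 2.66, 2.07 and 2.40 CPM in TDE. The lowest value, in CTR replicate 1, rested on 14.02 estimated reads. The difference from CTR was -0.29 (SE 0.487) and its 95% interval ran from -1.40 to 0.83, which leaves room for a decrease of more than 2-fold. Without CTR replicate 1 it was -0.71 (adjusted p = 0.0426, edgeR quasi-likelihood test), and without CTR replicate 3 it was 0.091.

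Stab1 (stabilin-1), an endocytic receptor of sinusoidal endothelium and some macrophages, was lower in TDE than in either other group. The values were 249.1, 152.6 and 172 CPM in CTR, 173, 170.9 and 138.5 CPM in NE, and 79.25, 76.59 and 84.53 CPM in TDE. All TDE libraries were below the lowest of the 6 others. The edgeR log2 fold change was -1.25 (SE 0.200, adjusted p = 0.00492) against CTR and -1.0 (SE 0.199, adjusted p = 0.0124) against NE, and -1.03 against CTR without replicate 1. Among the 10 receptors, Stab1 alone has exons that overlap another gene, Nt5dc2 on the opposite strand, and whether reads were counted by strand is not given. Nt5dc2 had 69.98 to 99.75 CPM in CTR and 31.64 to 32.39 CPM in TDE, so reads of the 2 genes may not be told apart.

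Lrp1, the lipoprotein receptor-related protein, was abundant but spread widely within CTR and NE, with coefficients of variation of 49.1% and 36.0%, against 10.6% in TDE. It was measured at 542.4, 897.6 and 1493 CPM in CTR, 1648, 1601 and 787 CPM in NE, and 1147, 961.8 and 1176 CPM in TDE. The libraries low in Lrp1 were CTR replicate 1, NE replicate 3 and CTR replicate 2, which were also the 3 libraries whose genes of 10000 bases or more had negative median deviations (-0.99, -0.26 and -0.15). The Lrp1 entry is 14888 bases long, the longest of the 10. Its log2 fold change against CTR was 0.16 (SE 0.392, adjusted p = 0.776, edgeR), and -0.14 without CTR replicate 1. It was -0.26 (SE 0.126, adjusted p = 0.158) when each library was given offsets fitted to gene length in edgeR, a setting added after the data were seen. The part of gene length in this spread was not otherwise tested. Lrpap1, the chaperone of Lrp1, was at 184.6 ± 66.7 CPM in CTR and 204.6 ± 5.43 in TDE and did not pass with all libraries. It passed without CTR replicate 1, at a log2 fold change of 0.48 (adjusted p = 0.000633, edgeR).

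Against NE, more receptors passed the test than against CTR. The coefficient of variation was smaller in NE than in CTR for each of the 10. The fit shares its estimate of spread over all libraries, and SEs were alike against NE and CTR (Msr1 0.133 and 0.132, Cd36 0.275 and 0.273). The log2 fold changes were -0.53 and -0.28 for Msr1 and -1.32 and -0.83 for Cd36. Marco and Scarb1 were higher and Msr1, Colec12, Cd36 and Stab1 were lower in TDE, 6 of 10, beside 14.0% of all tested genes (6.73% higher, 7.22% lower). Marco had the largest fold change, 4.37 on the log2 scale (SE 0.528, adjusted p = 0.00131, edgeR), or 20.7-fold. The TDE and NE libraries did not overlap for 8 receptors, these 6 with Mrc1 and Cd163, beside 54.5% of all tested genes. The median log2 fold change of the 10 was -0.54, beside -0.02 for all tested genes. The count depended on single libraries: it was 2, Marco and Colec12, without NE replicate 1, without NE replicate 2, or without any 1 of TDE replicates 1, 2 and 3. The count over all genes fell too, from 2097 to 1136, 1081, 1003, 1036 and 971 in the same order. With library totals as the scaling, 4 receptors passed, without Msr1 and Scarb1, beside 1788 of all genes.

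**Figure D2:**
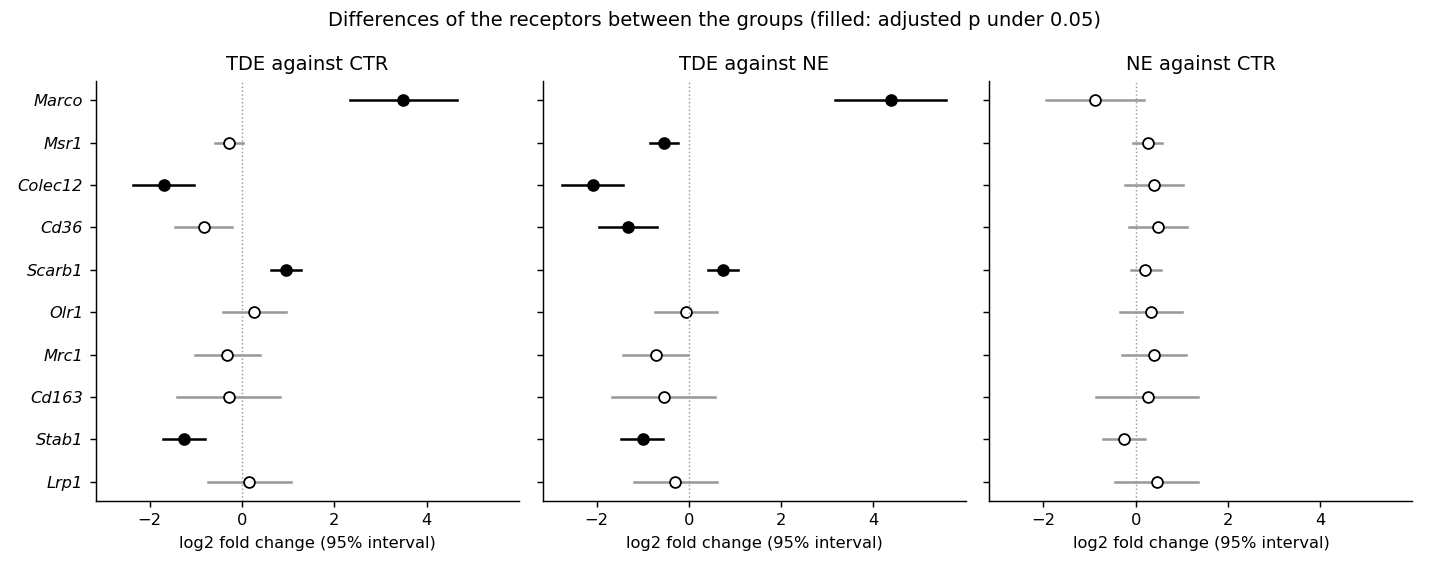
Log2 fold change of each receptor (horizontal axis) with its 95% interval in the 3 comparisons, from the edgeR fit to all 9 libraries, with filled points for an adjusted p under 0.05. Filled points number 4 in TDE against CTR, 6 in TDE against NE and 0 in NE against CTR, and Marco lies farthest from 0 in both TDE comparisons, which share their TDE libraries.

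After exosomes of NIH-3T3 cells, no difference in these receptors passed at an adjusted p under 0.05. In NE against CTR, 0 of 10 passed edgeR's test and 0 had an unadjusted p under 0.05, as 0 (0%) of all tested genes passed and 487 had an unadjusted p under 0.05. With DESeq2 and with limma voom, 0 receptors passed as well, beside 6 and 18 of all tested genes. Unadjusted p was lower there for some receptors, each higher in NE. With voom it was 0.0032 for Lrp1, 0.0033 for Cd36, 0.0036 for Msr1, 0.0161 for Mrc1 and 0.0263 for Olr1. With DESeq2 it was 0.0307 for Msr1. The remaining receptors were not under 0.05 by either method. In the edgeR fit to all libraries, the adjusted p of the receptors lay between 0.659 and 0.772. Without CTR replicate 1 none passed either, but Cd36 (0.20) and Msr1 (0.16) had an unadjusted p of 0.0364 and 0.0494 in edgeR. Marco moved from -0.89 to -0.01 when that library was left out. Msr1 and Cd36 were higher in each NE library than in each CTR library, 2 of 10 without overlap beside 7.71% of all tested genes, with log2 fold changes of 0.26 (95% interval -0.05 to 0.56) and 0.48 (-0.14 to 1.11). For Lrp1 the interval of -0.44 to 1.36 spans more than a 2-fold increase, so a difference of that size would not have been detectable here.

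CTR replicate 1 set how many receptors passed against CTR. Without it the count was 8 of 10, beside 34.4% of all genes then tested, with Cd36, Msr1, Mrc1 and Cd163 added to the 4 and each of them lower in TDE. DESeq2 on all 9 libraries called 6, the same 4 with Cd36 and Msr1, beside 27.0% of all genes it gave an adjusted p. Offsets fitted to gene length called 6, the same 4 with Cd36 (-0.82, adjusted p = 0.0472, edgeR) and Mrc1 (-0.49, adjusted p = 0.0470), beside 24.8%. In all 18 alternative settings Marco, Scarb1, Colec12 and Stab1 passed against CTR with the same sign. Olr1 and Lrp1 passed in none of them.

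**Figure D3:**
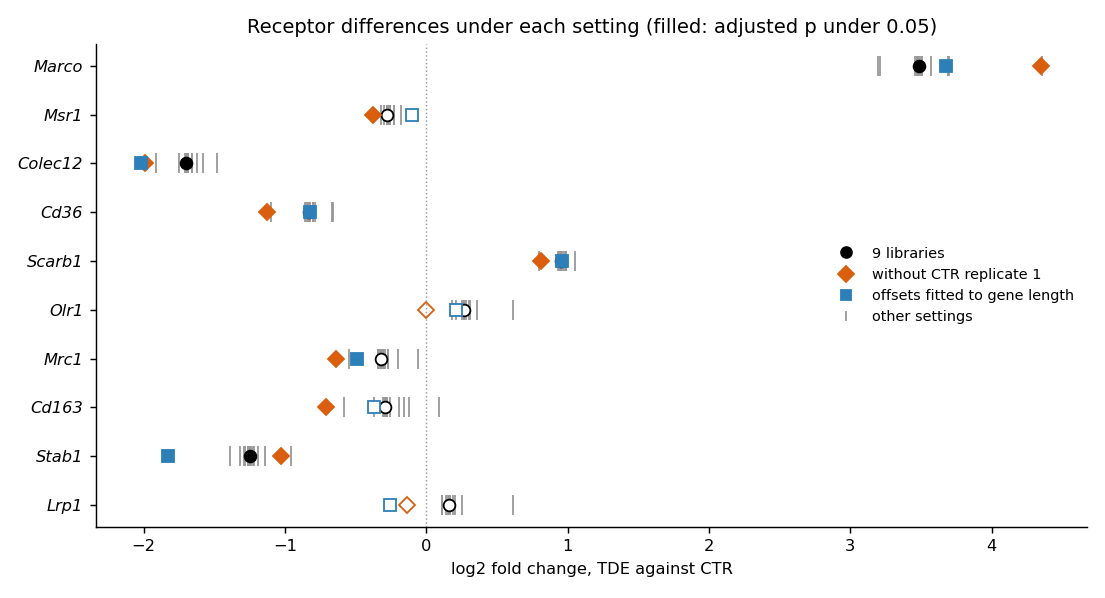
Log2 fold change of each receptor, TDE against CTR (horizontal axis), with all 9 libraries (circles), without CTR replicate 1 (diamonds), with offsets fitted to gene length (squares) and under the other settings (ticks), filled for an adjusted p under 0.05. Marco, Colec12, Scarb1 and Stab1 have filled symbols in all 3, and Olr1 and Lrp1 in none.

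Levels of different genes were compared per length, in TMM-scaled CPM divided by the gene length of the table in kilobases (RPKM). In CTR the order of the mean levels was Msr1 at 228.6 ± 28.8 (SD, n = 3), Cd36 at 153.4 ± 57.9, Marco at 72.0 ± 56.6, Lrp1, Mrc1, Scarb1 and Stab1 at 23.9 or more, then Olr1 at 3.01, Colec12 at 1.52 and Cd163 at 0.649. The ranges of Msr1 and Cd36 and of Stab1 and Olr1 did not overlap in CTR, while those of the other neighbours in that order did. The place of Marco came from CTR replicate 1, since over replicates 2 and 3 alone its mean was 39.3 RPKM, below Lrp1 at 80.3 and Mrc1 at 64.7. In NE, where Marco ranked 6, Msr1 and Cd36 again led and did not overlap. In TDE, Marco led at 807 ± 17.1, its lowest library at 796.8 against the highest of Msr1 at 193. Msr1 at 188.9 ± 3.58 and Cd36 at 86.1 ± 3.62 followed, and Cd163 and Colec12, whose ranges overlapped, were the lowest.

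Summed per length, the 10 receptors came to 634.9 ± 84.8 RPKM in CTR (SD, n = 3), 751.8 ± 58.7 in NE and 1277 ± 27.1 in TDE. Marco made up 25.1%, 6.04% and 5.57% of that sum in CTR replicates 1 to 3, 4.13% to 6.72% in NE, and 62.2% to 63.9% in TDE. Without Marco, the other 9 summed to 562.9 ± 137.7 RPKM in CTR (409.7, 602.4 and 676.5 in replicates 1 to 3), 712.8 ± 64.0 in NE and 470.4 ± 16.7 in TDE. Scarb1 held 5.34% ± 0.537 of the sum in CTR and 5.11% ± 0.00885 in TDE. These shares depend on the length given to each gene. With the union of the exons of GENCODE vM21 as length, a setting added after the data were seen, Msr1 counts as 6344 bases in place of 1424 and Scarb1 as 8500 in place of 2521. The share of Scarb1 was then 2.75% ± 0.374 in CTR and 1.86% ± 0.00749 in TDE. Cd36 then led in CTR at 109.6 ± 41.3 RPKM and Msr1 came at rank 4, whereas Marco still led in TDE, with 77.6% ± 0.815 of the sum.

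**Figure D4:**
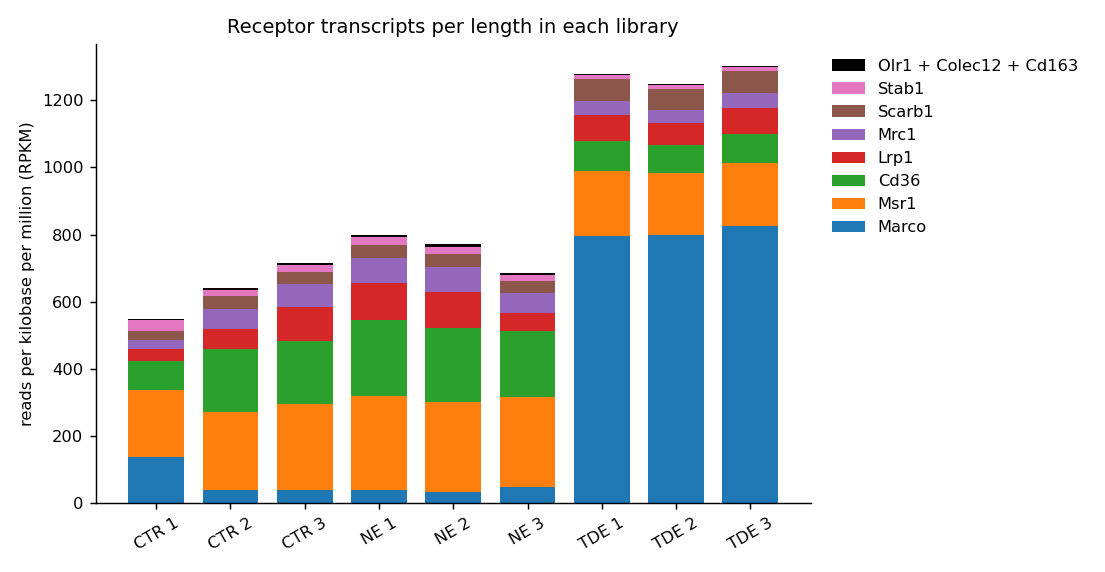
Stacked level of the receptors per length (RPKM, vertical axis, linear from 0) in each of the 9 libraries, with 1 colour per gene and the 3 least abundant summed. Marco makes up most of the bar in the 3 TDE libraries and a small part of it elsewhere, with CTR replicate 1 between.

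Likeness of pattern was described by Pearson's r of log2 CPM over the 9 libraries, among 10453 tested genes with a mean of at least 5 CPM. These 9 points share 3 groups and the deviation of CTR replicate 1, so high values are common. Marco was most like Fpr1, a formyl peptide receptor (r = 0.999), P4hb (0.998) and Dtx2 (0.997). Cd36 was most like Knop1 (0.998) and Antxr2 (0.995). Scarb1 was most like Mboat7, Tiparp and Ckap2l (0.993 each), Colec12 most like Mat2a (0.997), Il7r (0.995) and Ctnna1 (0.994), and Stab1 most like Padi2 (0.993). No member was among the 3 genes most like another.

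Promoter sequences are shown for the genes called in TDE against CTR that moved in opposite directions and have an entry in the RefSeq promoter table (GRCm38.p6), from 250 bases before to 50 after the start. Of the 10 receptors 7 had a usable entry, Scarb1 and Msr1 had none, and that of Colec12 was not used here. Capitals mark GAGGAA, the core bound by PU.1, the myeloid master factor encoded by Spi1, which was searched on both strands.
Marco promoter, chr1:120504975-120505274, minus strand: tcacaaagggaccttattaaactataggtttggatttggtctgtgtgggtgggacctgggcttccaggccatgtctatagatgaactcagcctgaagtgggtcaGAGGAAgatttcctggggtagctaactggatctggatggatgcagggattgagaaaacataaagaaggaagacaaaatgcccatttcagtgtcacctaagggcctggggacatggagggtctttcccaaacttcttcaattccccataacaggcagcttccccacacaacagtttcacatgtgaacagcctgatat
Stab1 promoter, chr14:31168592-31168891, minus strand: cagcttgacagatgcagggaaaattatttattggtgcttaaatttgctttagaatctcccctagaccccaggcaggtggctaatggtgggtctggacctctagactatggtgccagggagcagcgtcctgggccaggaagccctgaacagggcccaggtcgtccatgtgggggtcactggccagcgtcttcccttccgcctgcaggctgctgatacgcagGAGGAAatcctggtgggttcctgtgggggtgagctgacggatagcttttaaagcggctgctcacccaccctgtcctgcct
Marco held the letters at positions -146 to -141 from the start and Stab1 at -30 to -25, both on the strand of the gene. Olr1 and Mrc1 held them too, Mrc1 at 3 places, as did 28.3% of 32851 promoters of that length. AGGTCA, a nuclear receptor half-site, was found in Olr1 and in the window listed for Cd36, in which none of the 6 GENCODE transcripts of Cd36 starts, and in 16.3% of all promoters, and TGANTCA, the AP-1 site, in Olr1 and in 7.81%. TTGCNNAA (C/EBP, 10.8% of all) and TATAAA (13.6%) were in none of the 7. Spi1 itself was at 388.6 ± 139.7 CPM in CTR and 340.8 ± 9.13 in TDE (log2 fold change -0.19, adjusted p = 0.583, edgeR).

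Genes around the receptors were counted in 8 lists, in which 41 of 134 tested genes (30.6%) passed in TDE against CTR, beside 16.9% of all tested genes (7.57% higher, 9.34% lower). Without CTR replicate 1 it was 75 of 134 (56.0%), beside 34.4%, so the counts without it are given for each list. Among other scavenger receptors, 0 were higher and 4 lower of 15 tested (1 and 6 without that library). They included Clec7a, the beta-glucan receptor dectin-1 (515.8 ± 35.8 CPM in CTR, 169.3 ± 6.31 in TDE, log2 fold change -1.61), the galectin Lgals3 (-1.90, and -1.11 without CTR replicate 1) and the low-level Scara3 (-2.31). Of the mannose receptor family and C-type lectins, 3 were higher and 6 lower of 18 (5 and 8). The lower ones were led by Mgl2 (-4.10), the collagen receptor Mrc2 (-3.27) and Clec10a (-1.71), and the higher ones were Clec4a1 (1.30), Clec4a3 (1.12) and Clec4e (1.05), the Mincle receptor for mycobacterial glycolipid. In that family Mrc1 itself did not pass.

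Of the receptors and bridging proteins for apoptotic cells, 0 were higher and 6 lower of 14 (1 and 9 without CTR replicate 1), among them the bridging proteins Mfge8 (-2.28, and -1.71 without that library) and Gas6 (-2.10) and the receptor Havcr2 (-2.24). Their list had a median log2 fold change of -0.85, beside -0.06 for all tested genes.

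Of ligands and of lipoprotein and haemoglobin proteins, 1 was higher and 4 lower of 13 (3 and 7 without CTR replicate 1). Apoe, an apolipoprotein that Lrp1 binds, fell from 4111 ± 3287 CPM in CTR to 186.8 ± 7.25 in TDE (-4.46, adjusted p = 0.00146, edgeR), and by 3.72 on the log2 scale against NE. CTR replicate 1 held 7898 CPM of Apoe and the other 2 a mean of 2218, and without it the log2 fold change was -3.58 (adjusted p = 9.31e-07, edgeR). Spp1 (-1.93) and C1qb (-1.95, and -0.91 without CTR replicate 1) were also lower. Hmox1, which breaks down haem delivered by routes such as Cd163, rose from 213.7 ± 40.7 to 751.1 ± 63.2 CPM (1.81). Of the partners and signalling genes of Cd36, 5 were higher and 0 lower of 18, with Lyn (1.07), the tetraspanin Cd81 (1.04) and Syk (0.76) leading. Without CTR replicate 1 it was 6 higher and 4 lower, the lower ones being Cd9 (-0.69), Tlr4 (-0.62), Cav1 (-0.56) and Zdhhc4 (-0.42), so a single direction was seen with that library included and not without it.

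Of 18 transcription factors linked to the receptors, 1 was higher and 5 lower (4 and 8 without CTR replicate 1). Pparg, the lipid-sensing nuclear receptor for which Cd36 is a classical target, fell from 14.0 ± 1.18 to 4.0 ± 0.531 CPM (-1.81, adjusted p = 0.000334, edgeR). Cebpa and Egr2 (-0.93 each) were lower and Ppard (0.93) was higher. Of the 12 sheddases that can cut receptors off the cell surface, Mmp14 was higher (1.05) and Mmp9 lower (-0.84), 16.7% of the list and so near the 16.9% of all tested genes (3 higher and 2 lower without CTR replicate 1). Of 26 tested genes of clathrin-mediated endocytosis, a route by which cargo-loaded receptors enter the cell, 3 were higher and 1 lower (15.4%, also near that share, and 5 and 3 without CTR replicate 1), with Itsn1 (1.37), Arrb1 (1.10), Ap2a2 (0.70) and Hip1r (-0.91). Against NE, the counts of higher and lower genes were 0 and 4, 3 and 3, 0 and 8, 1 and 3, 3 and 1, 1 and 7, 1 and 2, and 4 and 0 in the same order of lists. That was 26.7%, 33.3%, 57.1%, 30.8%, 22.2%, 44.4%, 25% and 15.4% of the tested genes of each list. Of all tested genes 14.0% passed against NE (6.73% higher, 7.22% lower), near the share of the clathrin list. In NE against CTR, edgeR's test called 0 in each list.

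**Figure D5:**
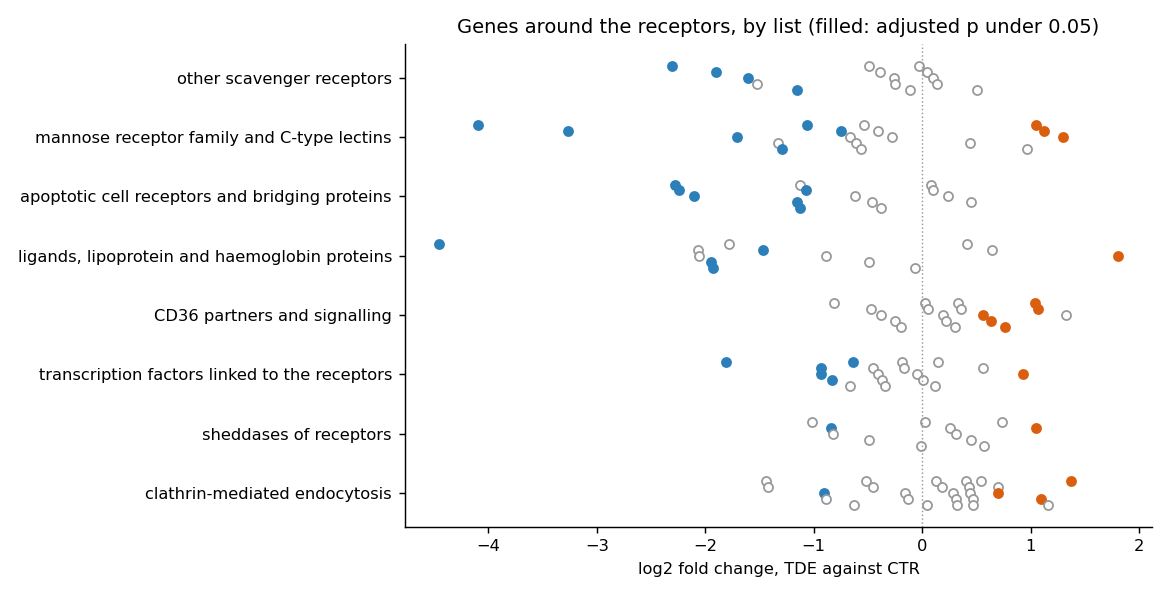
Log2 fold change, TDE against CTR (horizontal axis), of each tested gene of the 8 lists, filled in orange (higher) or blue (lower) for an adjusted p under 0.05 and open otherwise. Filled points in the list of apoptotic cell receptors and bridging proteins are all lower and those among the Cd36 partners all higher with the 9 libraries plotted, while without CTR replicate 1 the counts were 1 higher and 9 lower, and 6 higher and 4 lower.

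The study's methods describe the BMDCs as purified before RNA extraction, without saying by which marker for these libraries. Markers of other cell types moved with the TDE group, and their part in the receptor differences was not tested. The summed level of 11 macrophage markers was 4018 to 4806 CPM in CTR, 3880 to 4173 in NE and 5374 to 5741 in TDE. That sum followed Adgre1, which codes for F4/80 (206.1, 446.8 and 480 CPM in CTR, 2261, 2114 and 2312 in TDE, log2 fold change 2.56, adjusted p = 0.00129, edgeR). Csf1r, another gene of that list, was at 1371 to 2071 CPM in CTR and 1969 to 2094 in TDE (0.18, adjusted p = 0.490, edgeR). Timd4 was at or under 3 reads in each library. The 14 dendritic cell markers summed to 14960, 6224 and 5082 CPM in CTR replicates 1 to 3. In NE they summed to 4855 to 6071 and in TDE to 2915 to 3111. The largest part was Cd74, at 8675, 2632 and 2057 CPM in CTR replicates 1 to 3 (-2.36, adjusted p = 0.0165, edgeR). H2-Ab1 was also lower than in CTR (-1.23, adjusted p = 0.0396), and neither gene passed against NE (adjusted p = 0.115 and 0.319). Zbtb46 (-0.32), Batf3 (-1.55) and Irf8 (0.29) did not pass against CTR. The defining markers of the labelled cell type were present, Itgax (CD11c) at 137.5 to 157.5 CPM in CTR and 107.3 to 115.3 in TDE and Flt3 at 11.6 to 15.99 and 13.7 to 14.9. Neutrophil markers (10 genes) summed to 28840, 9470 and 7126 CPM in CTR replicates 1 to 3, 7507 to 10820 in NE and 3080 to 3377 in TDE. Eosinophil markers (6 genes) summed to 1669, 803.7 and 620.9 CPM in CTR, 634.3 to 721.1 in NE and 115 to 143.7 in TDE. Endothelial markers (7 genes), which bear on Stab1, summed to 10.1 to 15.3 CPM in CTR, 12.9 to 14.9 in NE and 33.1 to 35.5 in TDE, nearly all of it Pecam1, and Stab2 was at 0 in each TDE library. Mast cell and basophil markers (6 genes) summed to 240.4, 101.8 and 77.5 CPM in CTR, 88.1 to 122.2 in NE and 15.9 to 18.2 in TDE. Sums for B cells, T and NK cells, fibroblasts, epithelium and erythroid cells were at most 71.8 CPM in any library.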

How the data were processed

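The authors deposited 1 table of estimated counts (expected counts), which holds 1 row per gene and 1 column for each of the 9 libraries, 3 each of CTR, NE and TDE, and all 9 were used. Per the labels and the study's methods, RNA was extracted with Trizol, primed with oligo(dT) and random primers, sequenced on an Illumina instrument and aligned with TopHat2 2.1.1. The submitters' processing notes also list DESeq2 1.24.0 and R 3.3.1. The program that counted reads, its use of strand, and the build and annotation it used are not given in the sources used here. The table's means per group, KEGG and GO columns were not used.

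Estimated counts were rounded to whole numbers, filtered with filterByExpr and scaled by TMM (factors of 0.751 for CTR replicate 1 and 0.999 to 1.074 for the others). The 3 group means were estimated in a single fit to the 9 libraries in edgeR 4.0.16 (R 4.3.3), the pairs were compared by the quasi-likelihood F test, and p-values were adjusted by Benjamini-Hochberg over the 15028 tested genes at a threshold of 0.05. Standard errors are the log2 fold change over the square root of F. No p was computed over a list. The alternatives were DESeq2 1.42.0, limma 3.58.1 (voom with quality weights), other scalings, filters and libraries, and a replicate block. The scripts were tested on simulated data. Of the entries, 55536 carried a mouse Ensembl identifier and all of these were found in GENCODE vM21, from which positions and exons were taken. Protein sequences are not shown.

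The receptors and the gene and marker lists were chosen with earlier results of these data known, so a list's count is a description. Named were all 10 receptors, from each list up to 3 genes at either end of the log2 fold changes that passed in TDE against CTR, and the 3 genes most like each receptor with a mean of at least 5 CPM. A further list and some genes that this rule names are not reported here. Spi1, Lrpap1, Nt5dc2 and the Cd36 partners that were lower without CTR replicate 1 were added after their values were seen.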

Additional observations from a re-analysis of the deposited data

How the results depend on the processing

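For TDE against CTR, 4 receptors passed with all libraries, 8 with limma voom and quality weights, and 4 to 8 with 1 library left out, the 8 being without CTR replicate 1. For TDE against NE, 6 passed, and 2 to 7 with 1 library left out. The count of listed genes that passed in TDE against CTR was 41, 97 with voom and 29 to 75 with 1 library left out. The count of all tested genes was 2541 against CTR and 2097 against NE. It ranged over the settings from 1106 to 7884 and from 971 to 8311, both highest with voom. The summed level of the receptors in CTR was 634.9 RPKM, and 365.7 RPKM with the union of exons as length. With 1 library left out, the log2 fold changes against CTR ran from -0.0045 to 0.61 for Olr1, from -0.71 to 0.091 for Cd163 and from -0.14 to 0.61 for Lrp1, which was -0.26 with offsets fitted to gene length. Those of Olr1 against NE ran from -0.18 to 0.030, and those of Cd163 in NE against CTR from -0.16 to 0.63. Stab1 was 0.12 in NE against CTR with voom, where it was -0.25 with edgeR. These changes of sign were in differences that did not pass, and the cause was not tested. Deviations of same-numbered libraries from their group means correlated at -0.056 to 0.072 in TDE against CTR, -0.071 to 0.027 in TDE against NE and -0.585 to 0.185 in NE against CTR. These few values, with CTR replicate 1 far from its group, cannot decide whether replicate numbers pair the libraries. With the replicate block, 4 receptors passed against CTR, 4 against NE and 0 in NE against CTR. Cd163, with 14.02 to 84 estimated reads per library, is the receptor most limited by depth.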
